A study of Mus musculus with 31 samples.

Results

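The genes described here encode keratins and proteins of the cornified envelope, measured by bulk RNA-seq in the masseter muscle (MM) of mice. Members were all gene symbols that begin with Krt and a digit, with Sprr or with Lce, and that had at least 10 counts in at least 3 of 31 libraries. Of 22609 symbols in the files, 84 matched by name and 36 passed this minimum: 21 keratins, 13 Lce genes and 2 Sprr genes. All mice were adult male C57BL/6J, injected into the left MM, with 1 library per mouse. In the CFA experiment, 3 mice were examined at 1d and 3 at 5d after complete Freund's adjuvant, beside 3 mice given vehicle. In the Col experiment, collagenase type 2 was given at 0.2U, in groups of 4 mice labelled 1C and RPC, or at 10U, in groups labelled 2d (4 mice), 6d (3 mice) and 12d (4 mice), beside 3 vehicle-treated mice. The labels do not give the day of either 0.2U group, and the study's text gives other days for the 10U groups labelled 2d and 12d, so the labels are used throughout. Whole MM was taken, so a library holds every cell type that was dissected with the muscle.

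Keratins form the intermediate filaments of epithelial cells and work as pairs of 1 type I and 1 type II protein. Simple epithelia, such as salivary gland, pair Krt8 with Krt18 and add Krt7 and Krt19. The basal layer of skin and the basal cells of glands pair Krt5 with Krt14. In epidermis, cells that leave the basal layer switch to Krt1, Krt2 and Krt10, and then build the cornified envelope, a shell of cross-linked proteins that includes the Lce (late cornified envelope) and Sprr (small proline-rich) families. Krt17, Krt75 and Krt79 belong mainly to hair follicle and gland ducts, and Krt6a and Krt17 are induced in stressed epidermis. Skeletal muscle fibers are not an epithelium and have desmin filaments.

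A few sequences show which members the reads could and could not separate, and where paired genes part. The reads were 50 bases long, and a window of that length occurs unchanged in the coding sequence of 8 Lce members. In mm9 (NCBIM37) it lies in Lce1b at chr3:92459761-92459810, minus strand, and in Lce1c at chr3:92484496-92484545, plus strand, among other places in the cluster. Capitals mark the shared bases.
Lce1 shared window: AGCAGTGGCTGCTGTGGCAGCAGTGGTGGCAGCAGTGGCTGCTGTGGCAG
Krt14 and Krt17 share 55 such windows. One of them lies in Krt14 at chr11:100065434-100065483 and in Krt17 at chr11:100118759-100118808, both on the minus strand of mm9.
Krt14 and Krt17 shared window: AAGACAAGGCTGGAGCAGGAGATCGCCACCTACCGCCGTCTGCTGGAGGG
Over whole transcripts, windows shared with another gene made up 14.4% of Krt14, 8.4% of Krt5, 3.8% of Krt17 and 47.9% of Krt6a, the last mostly with Krt6b and Krt5. They made up 9.2% to 24.4% of 11 of the 12 Lce1 members and none of Lce1m, Krt1, Krt2, Krt10, Krt18 or Krt79. Values of Krt6a and of single Lce1 genes are therefore uncertain.

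Sprr1a and Sprr1b lie in the Sprr cluster on chromosome 3 and moved in opposite directions at 6d after 10U Col, and the 120 bases upstream of each start are shown for that reason. The sequences are RefSeq's, on GRCm38.p6, minus strand, at chr3:92485882-92486001 for Sprr1a and chr3:92438780-92438899 for Sprr1b. Capitals mark TATAAA and the AP-1-type motif TGANTCA, where N is any base.
Sprr1a: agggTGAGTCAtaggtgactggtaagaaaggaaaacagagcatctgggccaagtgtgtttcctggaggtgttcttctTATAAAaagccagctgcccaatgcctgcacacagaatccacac
Sprr1b: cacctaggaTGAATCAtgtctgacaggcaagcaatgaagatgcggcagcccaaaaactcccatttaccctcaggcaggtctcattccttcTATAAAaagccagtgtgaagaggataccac
Both promoters thus held both motifs. Searched on both strands of the 250 bases upstream, TGANTCA was found in 6.75% of 32851 RefSeq promoters and TATAAA in 12.4%. Of the 28 members with a promoter sequence, 2 held TGANTCA, namely Sprr1a and Sprr1b, and 6 held TATAAA. A match describes the letters of the window and not a site in use.

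Libraries held 14843778 to 29076671 reads on genes, so that 10 counts corresponded to 0.344 to 0.674 CPM, that is counts relative to library size, before scaling. Levels are given below as CPM scaled by TMM, which corrects for a few genes that take up much of a library. The 12 skeletal muscle markers were all present and summed to 36500 to 231800 CPM. Markers of other tissues differed widely between mice of the same group. The 22 salivary secretory markers, led by Smr3a and Bpifa2e, summed to between 14.5 and 688300 CPM. The count tables of the 11 libraries after 10U Col held 0.680 to 0.883 ambiguous reads per 100 reads on genes, against 0.147 to 0.318 in the other 20, so 10U Col and a difference in counting cannot be told apart in their comparison with vehicle. Because these are bulk samples, fewer cells of a type and less RNA per cell cannot be told apart.

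The 36 members fell into classes by their known place in epithelia: 4 simple epithelial, 3 basal, 5 suprabasal epidermal, 1 other stratified (Krt78), 4 inducible and follicle-duct, 4 other keratins (Krt23, Krt24, Krt80, Krt222) and 15 cornified envelope genes. Type I keratins lie in a cluster on chromosome 11 of mm9, such as Krt10 (chr11:99246568-99250678) and Krt14 (chr11:100064476-100068862), and type II keratins on chromosome 15, such as Krt2 (chr15:101641120-101648600) and Krt80 (chr15:101177875-101200556). The type I gene Krt18 is the exception and lies on chromosome 15 at chr15:101858647-101862457, beside Krt8 (chr15:101827142-101834773). Over all 31 libraries the highest mean level per length was that of Krt18, at 30.3 RPKM (CPM per kilobase of exon). Krt10 followed with 18.5 RPKM, Krt2 with 13 RPKM and Krt14 with 12.4 RPKM. The other 32 members had means between 0.0734 RPKM (Krt75) and 9.15 RPKM (Krt8). All 23 hair and nail keratins that matched by name stayed below the minimum, with at most 10 counts in any library. So did the esophageal pair Krt4 and Krt13, with at most 9 and 14 counts, Krt16 with at most 23, Krt20 with at most 5, and every Sprr2, Sprr3 and Lce3 gene.

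**Figure D1:**
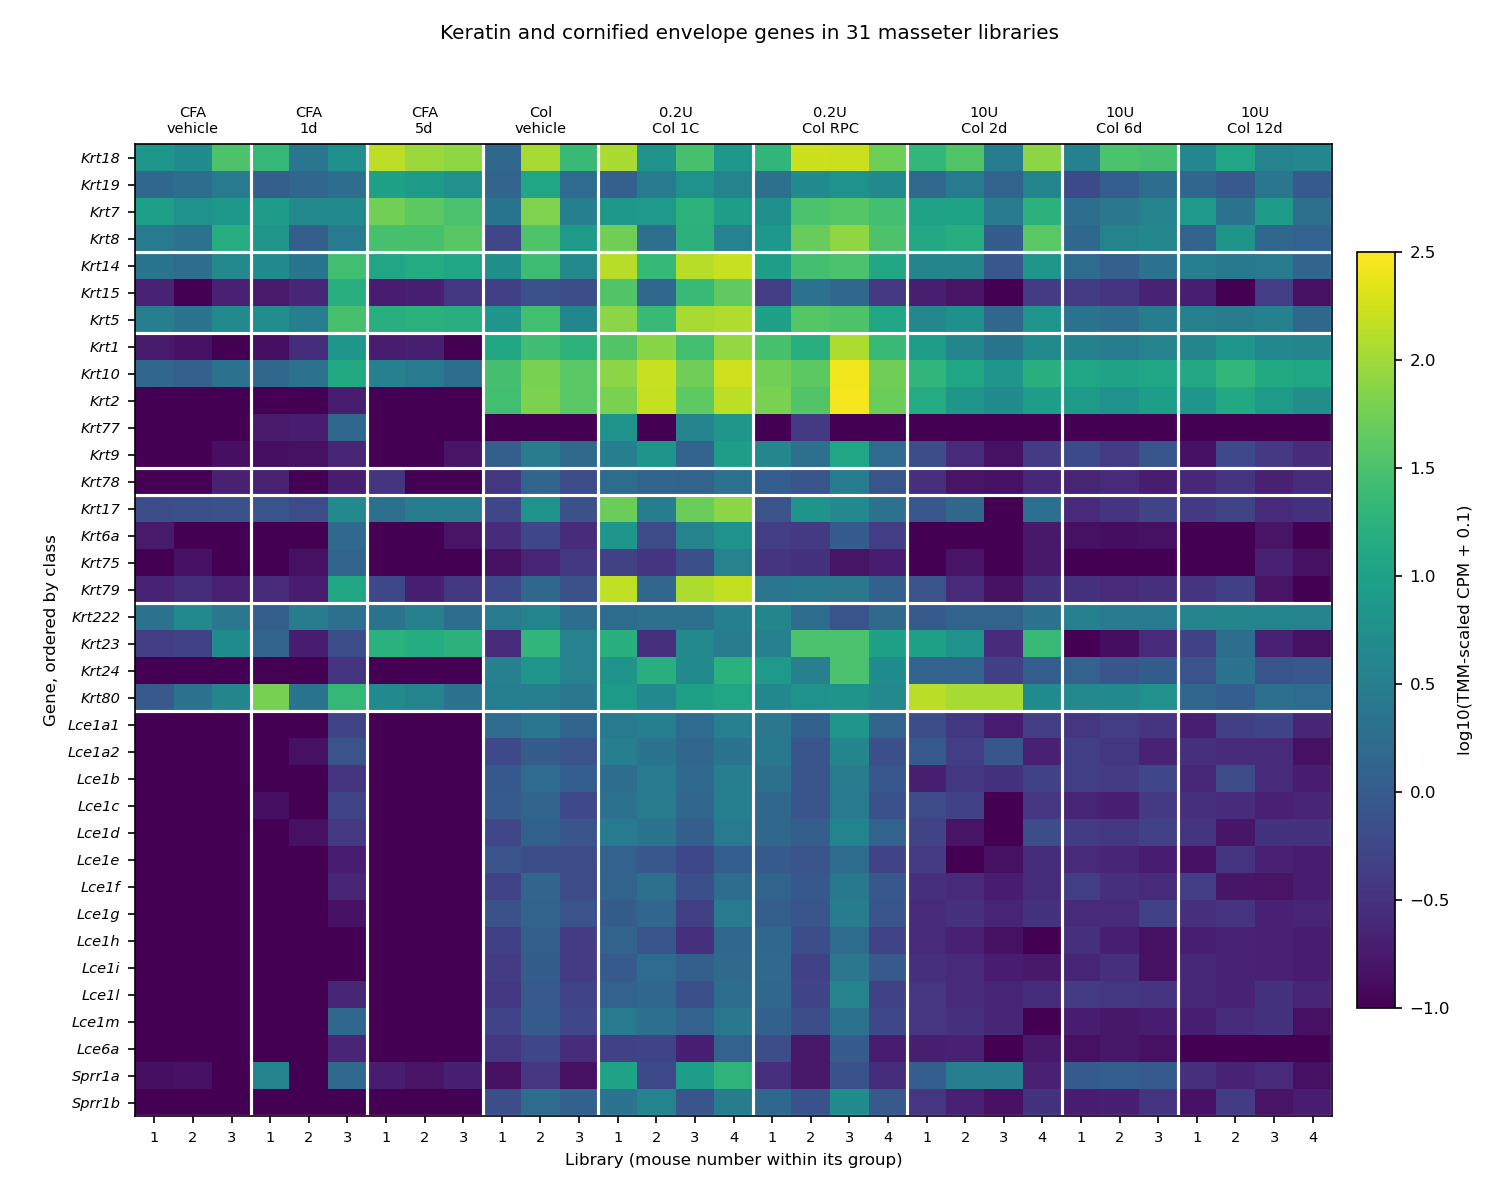
Level of the 36 members (rows, ordered by class) in each of 31 libraries (columns, by group), as log10 of TMM-scaled CPM plus 0.1. Krt2, Krt24, Sprr1b and the Lce1 genes are at or near 0 in most CFA libraries, with CFA 1d mouse 3 as the exception for the Lce1 genes and Krt1, while Krt1, Krt2 and Krt10 are present in all 22 Col libraries. Krt14, Krt5, Krt15, Krt17 and Krt79 are highest in 0.2U Col 1C mice 1, 3 and 4.

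Krt1, Krt2 and Krt10 separated the vehicle groups of the CFA and Col experiments. Of the suprabasal keratins only Krt2 separated all 31 libraries. CFA 1d mouse 3, with 7.06 CPM of Krt1 and 13.3 CPM of Krt10, lay inside the Col ranges, which began at 2.17 and 6.83 CPM. Krt2, a type II keratin of the upper epidermis, had 27.6, 63.9 and 40.3 CPM in the 3 Col vehicle libraries and 0 counts in all 3 CFA vehicle libraries. It was at least 352-fold lower in CFA vehicle, taking a floor of 3 counts per library. Krt1, the type II partner of Krt10, had 12.4, 26.5 and 18.2 CPM in Col vehicle against 0.0818, 0.0469 and 0 CPM in CFA vehicle. Krt10 had 29.7, 62.2 and 39.9 CPM against 1.35, 1.08 and 2.00 CPM. For each of these 3 genes every CFA vehicle library lay below every Col vehicle library. The vehicle groups did not overlap for 14 of 23 tested members, and the share of all genes without overlap was not counted.

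By edgeR's quasi-likelihood test across 14070 genes, with a call defined as a Benjamini-Hochberg adjusted p under 0.05 and a fold over 2, 3 of 23 tested members were lower in CFA vehicle than in Col vehicle and 0 were higher. Over all genes 0.0426% were called lower, 6 in all, and 0% higher. Krt1, Krt2, Krt9, Krt24, Krt79, Sprr1b and the tested Lce1 genes had under 10 counts in every CFA vehicle library. They passed the count minimum only through Col vehicle, so only a lower value was possible for them. Krt10 passed in both groups. The log2 differences were -4.91 ± 0.42 (SE, adjusted p = 0.0293) for Krt10 and -8.69 ± 0.69 (adjusted p = 0.0293) for Krt1. For Krt2 the adjusted p was 0.0296. The vehicle groups come from separate experiments, so whatever else differed between these experiments cannot be told apart here. The other 3 called genes were Calm4 and Hrnr, both of cornifying epidermis, and Myh3, embryonic myosin. Samples with the same number deviated together here, and with the replicate number as a block no member was called (edgeR adjusted p = 0.215 for Krt1 and 0.258 for Krt2 and Krt10, with log2 differences of -8.64 for Krt1 and -4.86 for Krt10). Without CFA vehicle mouse 1 or 2, or without any single Col vehicle mouse, 0 members were called. DESeq2 called 12 members, all lower, and the share of all genes it called was not counted.

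The 15 cornified envelope genes, taken as a sum, followed the same split between the vehicle groups. Their summed level was 8.24 to 16.4 CPM in Col vehicle and 0 to 0.0469 CPM in CFA vehicle. The 12 Lce1 genes alone summed to 1.29 to 36.4 CPM over the 22 Col libraries. In the CFA experiment they reached 3.9 CPM in CFA 1d mouse 3, with a median of 0 over the 9 libraries. Sprr1b was at 0 counts in all 9 CFA libraries and at 0.0444 to 4.85 CPM in the Col experiment. Lce1a1 was at least 13.6-fold lower in CFA vehicle than in Col vehicle, and Krt24 at least 35.7-fold lower, although neither passed the test (edgeR adjusted p = 0.149 and 0.102).

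Within the Col experiment the ratios of Krt1 and Krt2 to Krt10 varied less than Krt10 itself, which ranged from 6.83 to 269 CPM, but they differed by dose. Krt2 stood to Krt10 at 0.361 to 0.606 per length in the 11 libraries after 10U Col and at 0.629 to 0.875 in the 11 libraries of vehicle and 0.2U Col, with no overlap. Krt1 to Krt10 was 0.230 to 0.377 after 10U Col and 0.329 to 0.453 in the others, where only 10U Col 2d mouse 1 lay within the range of the others. The 10U libraries are also those with more ambiguous reads, and the part of the counting in these ratios was not tested. Krt24 to Krt10, where both had 10 counts (21 libraries), was 0.0599 to 0.152. Against this, Krt14 to Krt10 ranged from 0.125 to 2.87 over all 22 libraries, a 23.0-fold span. These ratios come from libraries that share an experiment and are given as a description. The 1 CFA library with a clear suprabasal signal, CFA 1d mouse 3, had another make-up, with Krt1 to Krt10 at 0.455 but Krt2 to Krt10 at 0.0056, from 2 counts of Krt2 and 286 of Krt10.

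**Figure D2:**
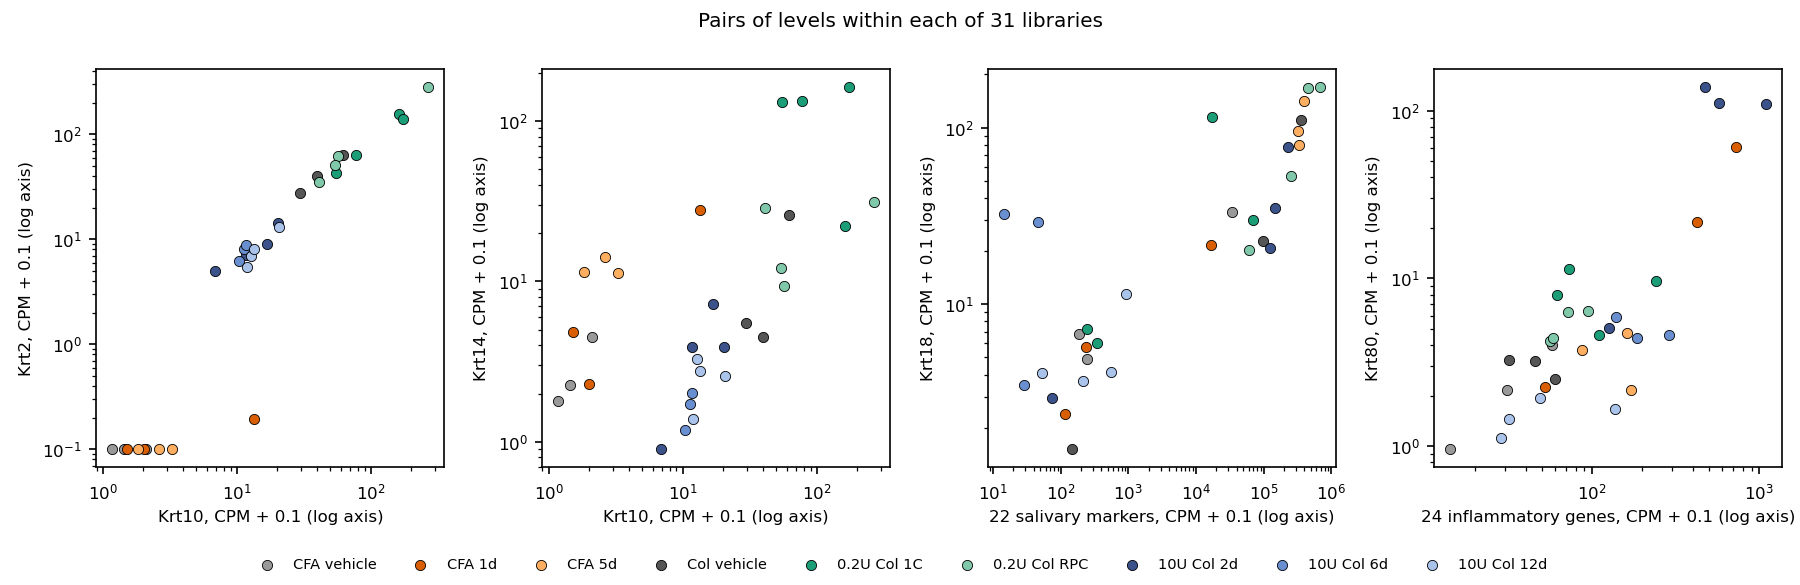
Each point is 1 of 31 libraries, colored by group, on log axes of TMM-scaled CPM plus 0.1: Krt2 against Krt10, Krt14 against Krt10, Krt18 against the sum of 22 salivary secretory markers, and Krt80 against the sum of 24 inflammatory genes. In the Col experiment Krt2 to Krt10 per length spans 0.361 to 0.875, lower after 10U Col than in the other libraries, and Krt14 to Krt10 spans 0.125 to 2.87, and 2 libraries at 10U Col 6d have Krt18 near 30 CPM with almost no salivary signal.

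After 0.2U Col, the basal and follicle-duct keratins were the members that stood out, and they did so in 3 of the 4 mice of the 1C group. Krt14 had 134, 22, 132 and 163 CPM in 1C mice 1 to 4, against 5.42, 25.7 and 4.39 CPM in vehicle. Its partner Krt5 had 77.1, 23.2, 109 and 120 CPM. Mouse 2 thus lay within the vehicle range for both genes. Krt79, a keratin of the hair follicle canal and sebaceous duct, had 145, 1.35, 118 and 152 CPM, against 0.501 to 1.37 CPM in vehicle. Krt17 had 52.5, 2.94, 52.3 and 77.8 CPM. Krt15, a keratin of basal and follicle bulge cells, had 35.7, 1.44, 23.2 and 44.1 CPM. Krt77, a keratin of sweat ducts and skin, had 6.15, 0, 3.58 and 6.97 CPM, with 0 counts in all vehicle libraries. The same 3 libraries were high for each of these genes.

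None of the 34 tested members passed edgeR's test between 1C and vehicle, where 0% of 14493 genes were called higher and 0% lower. At an unadjusted p under 0.05, 20 of the 34 members and 1819 genes passed. The log2 differences were 3.26 ± 0.90 for Krt14 (adjusted p = 0.276), 5.63 ± 1.12 for Krt15 (0.246), 4.34 ± 1.30 for Krt17 (0.280) and 7.02 ± 1.51 for Krt79 (0.246). DESeq2 called 12 members higher, among them Krt14, Krt15, Krt17, Krt77, Krt79, Krt6a and Sprr1a. Without 1C mouse 2, edgeR called 6 members higher: Krt15, Krt6a, Krt77, Krt79, Krt80 and Sprr1a. That fit leaves out the 1C mouse with the lowest level of each of these 6. Krt6a, Krt77 and Sprr1a had under 10 counts in every vehicle library. They passed the count minimum only through 1C, so only a higher value was possible for them. The share of all genes called was not counted for DESeq2 or for the fit without mouse 2. The median over tested members was 1.30 on the log2 scale, beside 0.01 over all genes.

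Markers of skin appendages moved with these keratins. The 10 sebaceous gland markers, led by Mgst1 and Soat1, summed to 892, 665 and 909 CPM in 1C mice 1, 3 and 4, to 70.5 CPM in mouse 2 and to 59.0 to 103 CPM in vehicle. Mgst1 and Soat1 led by mean over all 31 libraries but had at most 135 and 90.5 CPM in 1C. The other sebaceous markers thus made up most of the sums in mice 1, 3 and 4. All 10 had at least 10 counts in each of mice 1, 3 and 4, as did 6 of them in mouse 2 and 4 to 6 in vehicle. The 27 epidermal differentiation markers, led by Ppl and Elovl4, of which 26 were in the files, summed to 763, 187, 549 and 891 CPM in mice 1 to 4, and to 54.5 to 118 CPM in vehicle. The 12 hair follicle markers, led by Sostdc1 and Lgr6, summed to 11.3 to 52.0 CPM in 1C against 5.93 to 9.59 CPM in vehicle. Sostdc1 and Lgr6 had at most 10.2 and 9.83 CPM in 1C. Skin and muscle were not sampled apart, and the part of skin tissue in these levels was not tested. The suprabasal keratins other than Krt77 did not single out the same mice. Krt10 had 77.4, 163, 54.8 and 175 CPM, with mouse 2 among the highest. Krt14 to Krt10 per length was accordingly 2.06, 0.161, 2.87 and 1.11.

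In the RPC group the basal and follicle-duct keratins lay nearer to vehicle than in 1C. Krt79 was at 2.26, 2.53, 2.37 and 1.12 CPM, above the vehicle range in mice 1 to 3, and Krt17 was at 0.674 to 6.33 CPM. Suprabasal keratins were highest of all libraries in RPC mouse 3, with 269 CPM of Krt10 and 283 CPM of Krt2, while the other 3 mice had 41.1 to 57.1 CPM of Krt10, inside the vehicle range. Of 31 tested members 0 were called by edgeR, with 0% of 14269 genes called higher and 0% lower. At an unadjusted p under 0.05, 2 members (Krt79 and Krt80) and 1923 genes passed, and DESeq2 called 0 members. The log2 differences were 1.30 ± 0.69 for Krt10 (adjusted p = 0.437) and 0.83 ± 0.71 for Krt14 (0.615). The simple epithelial Krt18 had 20.3, 170, 167 and 53.3 CPM in RPC mice 1 to 4, against 1.41, 110 and 22.8 CPM in vehicle (1.23 ± 1.21, 0.663). Krt23 had 3.28, 31.4, 31.2 and 9.81 CPM (1.30 ± 1.23, 0.650). The salivary markers summed to 61770 to 688300 CPM in these 4 mice, and their part in these levels was not tested.

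**Figure D3:**
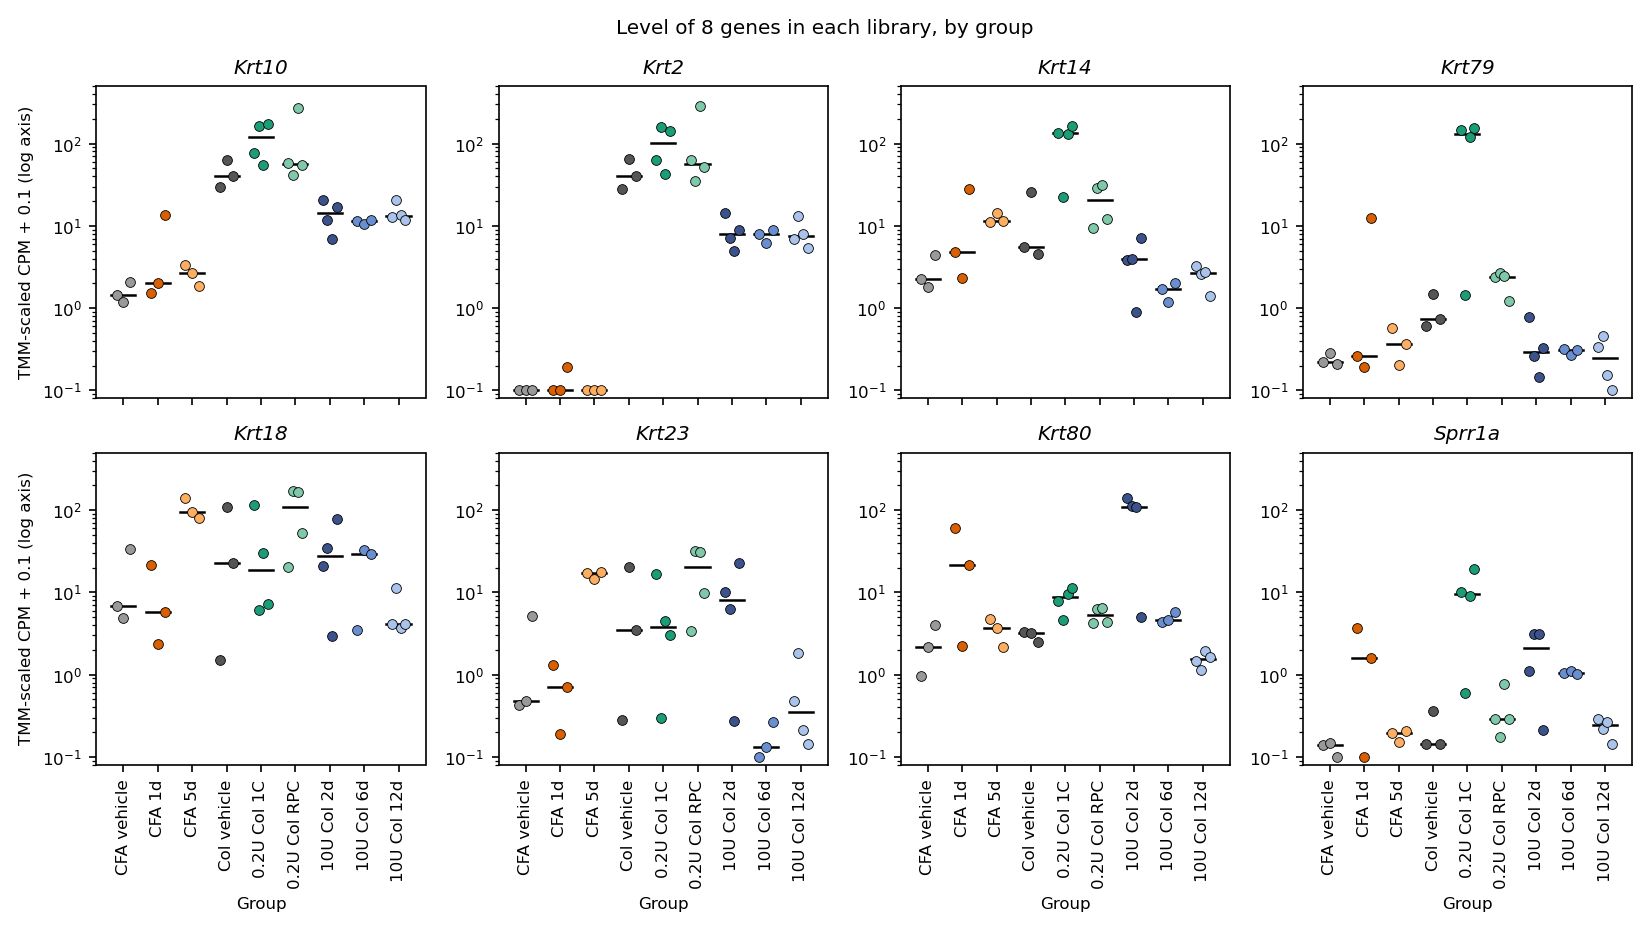
Level of 8 genes by group, as TMM-scaled CPM plus 0.1 on a log axis; each point is 1 library and each bar the group's median. Krt2 is at 0 in 8 of 9 CFA libraries, Krt14 and Krt79 are high in 3 of 4 mice of 0.2U Col 1C, Krt18 and Krt23 spread widely within groups, and Krt80 is over 100 CPM in 3 of 4 mice at 10U Col 2d.

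After 10U Col, the suprabasal keratins Krt1, Krt2 and Krt10 and the summed cornified envelope genes lay below Col vehicle in every library at all 3 labelled times. Without overlap with vehicle were 10 of 24 tested members at 2d, 18 of 23 at 6d and 17 of 23 at 12d. The share of all genes without overlap was not counted. The comparisons of these groups and of the 0.2U groups use the same 3 Col vehicle libraries. Krt10 had 20.3, 11.6, 6.83 and 16.8 CPM at 2d, 11.2, 10.4 and 11.7 CPM at 6d, and 12.8, 20.5, 13.4 and 11.8 CPM at 12d, all below the lowest vehicle library at 29.7 CPM. Krt2 had 4.88 to 14.1 CPM at 2d, 6.16 to 8.81 CPM at 6d and 5.30 to 12.9 CPM at 12d, against 27.6 CPM in the lowest vehicle library. The 5 suprabasal keratins together summed to 13.9 to 43.9 CPM over these 11 libraries.

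At 6d edgeR called 13 of 23 tested members lower and 1 higher, where 8.4% of 14281 genes were called lower and 10.3% higher. The median over tested members was -2.14 on the log2 scale, beside 0.01 over all genes. All 4 tested suprabasal keratins fell: the log2 differences were -2.52 ± 0.32 for Krt1 (adjusted p = 0.00359), -2.52 ± 0.33 for Krt2 (0.0043), -1.99 ± 0.28 for Krt10 (0.00516) and -1.80 ± 0.54 for Krt9, a keratin of footpad skin (0.0442). The basal keratins Krt14 and Krt5 fell too, with -2.93 ± 0.71 (0.0245) and -2.49 ± 0.70 (0.0372). Of 8 tested cornified envelope genes 5 fell, among them Lce1a1 (-2.55 ± 0.42, 0.00812) and Sprr1b (-2.90 ± 0.62, 0.0172). Krt24 and Krt79 fell as well. Krt79, Lce1c, Lce1g and Sprr1b had under 10 counts in every 6d library, and Sprr1a had under 10 in every vehicle library. These genes passed the count minimum through 1 group only, which fixed their direction.

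Salivary markers moved alongside at 6d, with 14.5 to 45.9 CPM in all against 149 to 360600 CPM in vehicle, and all 9 tested were called lower. The epidermal differentiation markers summed to 16.9 to 18.6 CPM, against 54.5 to 118 CPM in vehicle, and 14 of 18 tested were called lower. The 12 skeletal muscle markers summed to 46270 to 79390 CPM at 6d and 36500 to 74730 CPM at 2d, against 124700 to 186800 CPM in vehicle. At 6d 11 of the 12 had lower values, 4 of them called, with a median of -1.35 on the log2 scale. The part of these tissues in the keratin levels was not tested. With both vehicle groups as the reference 1 member was called, Sprr1a (3.81), and the 13 others kept negative values without a call, from -0.55 for Lce1b to -2.22 for Krt14. That reference includes CFA vehicle, where Krt1, Krt2 and Krt10 were lower than in Col vehicle. Leaving out 1 library left 4 to 12 members called, with 7 without Col vehicle mouse 2 and 5, 4 and 7 without 6d mouse 1, 2 and 3.

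At 2d, 1 of 24 tested members was called lower and 0 higher, where 0.877% of 14373 genes were called lower and 1.06% higher. This was Krt2, with a log2 difference of -2.32 ± 0.41 (adjusted p = 0.0465). Krt1 and Krt10 came close, at -1.95 ± 0.47 and -1.64 ± 0.40 (both 0.0578). Without 2d mouse 4, 12 members were called, 10 lower and 2 higher, with the share of all genes not counted for that fit. The 2 higher were Krt80 and Sprr1a, for which mouse 4 was the lowest of the 2d group. Without mouse 1, 2 or 3 of the 2d group, or without Col vehicle mouse 1 or 2, 0 were called. At 12d, Krt2 (-2.38 ± 0.38, adjusted p = 0.0263) and Krt1 (-2.0 ± 0.33, 0.0314) were called lower, 2 of 23 tested members, and 0 were higher, where 0.388% of 14176 genes were called lower and 0.67% higher. Without 12d mouse 1 or 3, or without Col vehicle mouse 2, 0 members were called at 12d, and without 12d mouse 4 only Krt2 was.

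**Figure D4:**
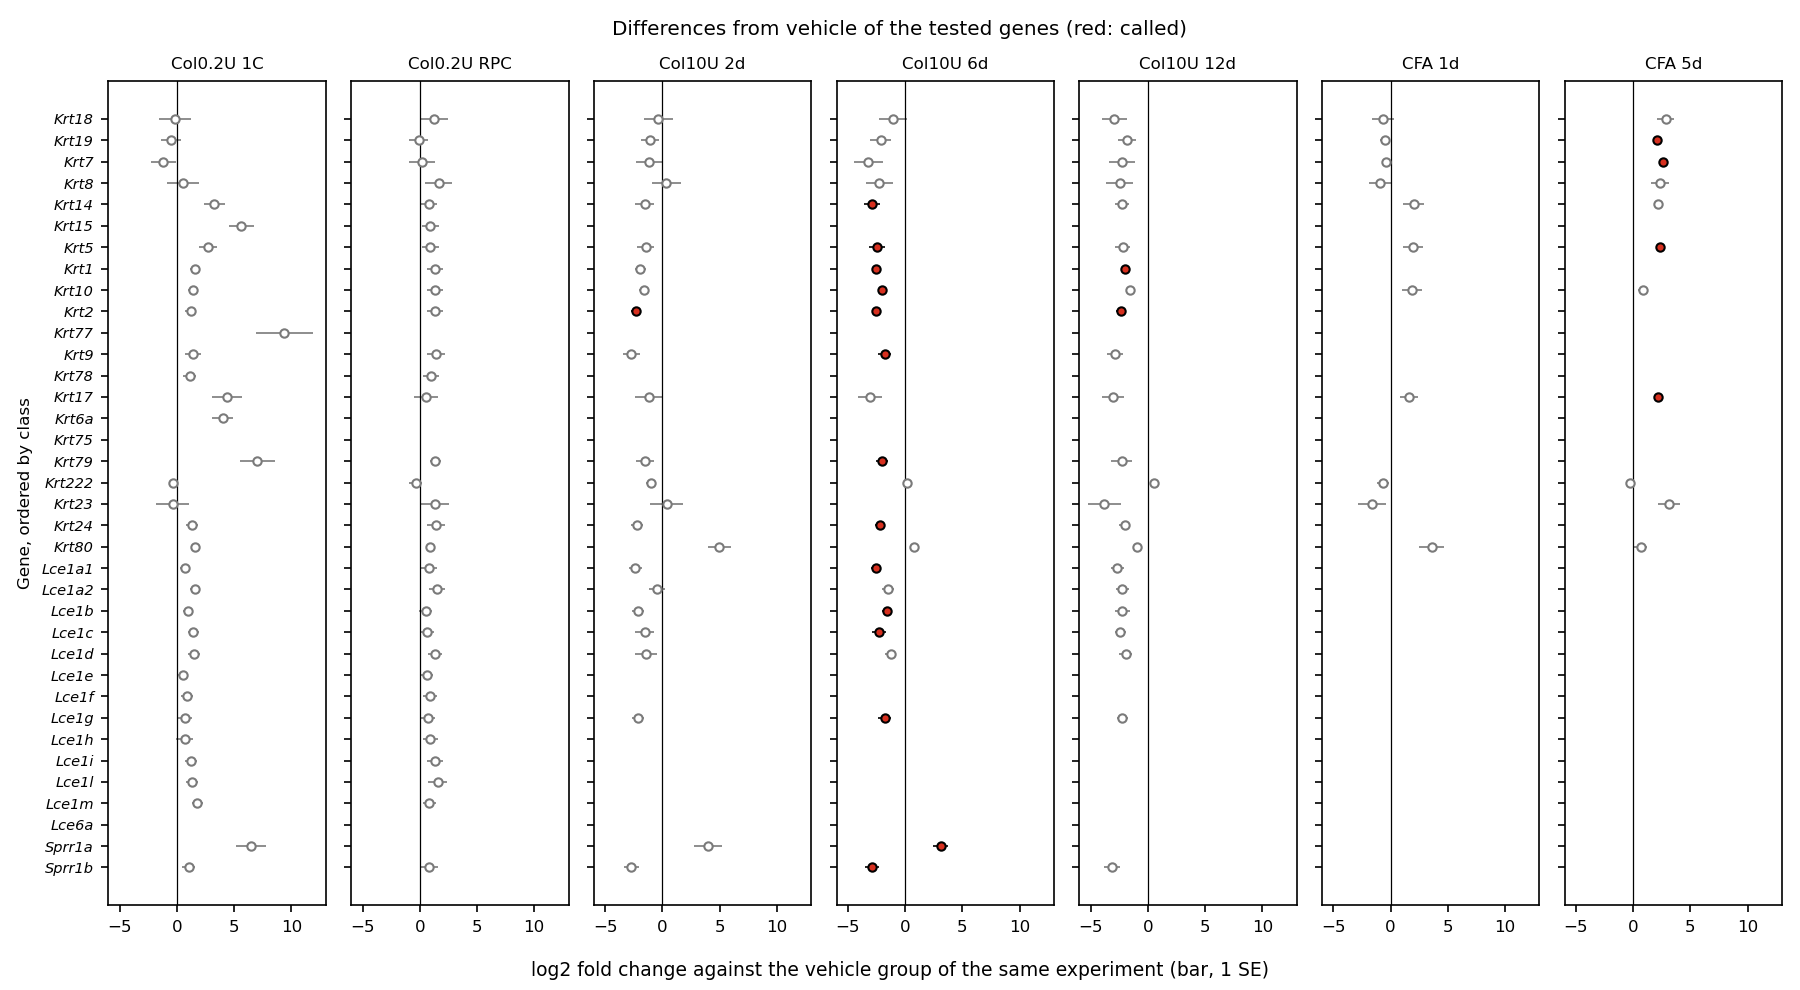
Log2 fold change of each tested member against the vehicle group of its own experiment, with 1 SE, for 7 groups; red points were called by edgeR (adjusted p under 0.05 and fold over 2) and a missing point was not tested. At 10U Col 6d 13 members lie on the left in red with Sprr1a on the right, and at CFA 5d the 4 red points are Krt19, Krt7, Krt5 and Krt17.

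Krt80 and Sprr1a stood on the other side of vehicle after 10U Col. Krt80, a type II keratin of differentiating epithelia, had 139, 111 and 110 CPM in 2d mice 1 to 3 but 4.95 CPM in mouse 4, against 2.40 to 3.19 CPM in vehicle. Its log2 difference was 4.98 ± 1.01 (adjusted p = 0.0501), just outside the call. It was 5.37 without mouse 4, the 2d mouse low in Krt80, and leaving out any other single library gave no call for it. At 1d post-CFA it had 60.3, 2.15 and 21.6 CPM, against 0.859 to 3.93 CPM in CFA vehicle (log2 difference 3.59 ± 1.10, adjusted p = 0.924). Within 10U Col 2d and CFA 1d, the library without high Krt80 was also the lowest in inflammatory genes. The 24 genes that the study tabulates as raised at 1d post-CFA, chosen there on these samples, summed to 476, 570 and 1098 CPM in 2d mice 1 to 3 and to 126 CPM in mouse 4. In CFA 1d mice 1 to 3 they summed to 724, 52.4 and 426 CPM. The libraries of the other groups had at most 290 CPM of these genes and at most 11.3 CPM of Krt80. Among them, the 3 mice at 10U Col 6d had 138 to 290 CPM with 4.32 to 5.76 CPM of Krt80. The 12d mouse 4 had 137 CPM with 1.56 CPM of Krt80. Whether inflammation plays a part in the Krt80 level was not tested.

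At 6d Krt80 was at 4.32 to 5.76 CPM. Between 6d and 2d edgeR called 2 of 16 tested members lower, where 2.73% of 14513 genes were called lower and 3.65% higher: Krt80 with -4.23 ± 0.97 (adjusted p = 0.0399) and Krt23 with -7.15 ± 1.67 (0.0418), and 0 higher. In the same comparison all 17 tested salivary markers had lower values, 14 of them called, as did all 14 shared epithelial markers, 9 of them called. For Krt80 the groups overlapped through 2d mouse 4. Krt23 had under 10 counts in every 6d library, so only a lower value was possible for it. Without 2d mouse 1 or 2, or without any single 6d mouse, 0 members were called, and without 2d mouse 3 there were 6.

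Sprr1a, a cornified envelope precursor known to be induced by stress and injury in several tissues, had 0.998, 3 and 3.06 CPM in 2d mice 1 to 3 and 0.113 CPM in mouse 4. At 6d it had 0.942, 1.02 and 0.918 CPM, against 0.0455 to 0.261 CPM in vehicle, and rose by 3.12 ± 0.65 on the log2 scale (edgeR adjusted p = 0.0162). In the same 6d libraries Sprr1b had 0.0856, 0.102 and 0.25 CPM, against 0.592 to 1.63 CPM in vehicle. Sprr1a also had 10.2, 0.498, 8.92 and 19.1 CPM in 0.2U Col 1C mice 1 to 4, where Sprr1b had 2.03, 3.54, 0.726 and 2.82 CPM. In CFA 1d mice 1 to 3 Sprr1a had 3.55, 0 and 1.48 CPM. The promoters printed above share both motifs, while the levels of these genes differed in each of these groups.

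Simple epithelial keratins differed widely between mice of 1 group, and so did the salivary markers. At 5d post-CFA, Krt18 had 141, 94.9 and 79.3 CPM against 6.71, 4.78 and 33.2 CPM in vehicle, and Krt7 had 56.6, 41.7 and 31 CPM against 9.40, 6.23 and 7.15 CPM. EdgeR called 4 of 11 tested members higher and 0 lower, where 0.998% of 14026 genes were called higher and 0.0428% lower. Krt7 rose by 2.57 ± 0.27 (adjusted p = 0.0223), Krt5 by 2.36 ± 0.31 (0.0352), Krt17 by 2.12 ± 0.35 (0.0447) and Krt19 by 2.08 ± 0.36 (0.0499). Krt18 was at 2.84 ± 0.75 (0.134) and Krt14 at 2.20 ± 0.40 (0.057). Krt14 was at 11.2 to 14.1 CPM in these 3 mice. Of the suprabasal keratins, Krt10 was at 3.21, 2.55 and 1.75 CPM, with a log2 difference of 0.81 ± 0.40 from vehicle (adjusted p = 0.433), Krt1 was at 0 to 0.104 CPM and Krt2 at 0 counts. Without CFA vehicle mouse 3, 8 members were called, with the share of all genes not counted for that fit. Without CFA vehicle mouse 1 or 2, or CFA 5d mouse 2 or 3, 0 were called, and without CFA 5d mouse 1 only Krt7 was.

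The salivary markers summed to 323100 to 390100 CPM in the 3 mice at 5d post-CFA, against 185, 246 and 33690 CPM in vehicle. CFA vehicle mouse 3, the highest of these, was also the vehicle library with the most Krt18, Krt8, Krt19 and Krt23, but not Krt7, which was at 7.15 CPM there and at 9.40 CPM in mouse 1. The order of the mice was also shared in Col vehicle, where mouse 2 had 360600 CPM of salivary markers with 110 CPM of Krt18, mouse 3 had 96390 with 22.8, and mouse 1 had 149 with 1.41. Krt7 was at 66.5, 3.12 and 2.19 CPM in these mice. The 14 shared epithelial markers, led by Epcam and Ehf, summed to 379 CPM in mouse 2, 123 CPM in mouse 3 and 10.7 CPM in mouse 1. The 10 basal epithelial markers, led by Itga6 and Dst, summed to 471 to 1028 CPM over all libraries, where Dst alone had 326 to 748 CPM. The 7 melanocyte markers, led by Mitf and Sox10, summed to 22.1 to 121 CPM, with only 2 or 3 of them at 10 counts in each library. The part of salivary tissue in the keratin levels was not tested.

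At 10U Col 6d Krt18 was present with almost no salivary signal. It had 3.38, 32.5 and 29.0 CPM in the 3 mice, with salivary markers at 28.3, 14.5 and 45.9 CPM. Krt8, its partner, had 1.37, 3.52 and 4.05 CPM, and Krt23, 0 to 0.167 CPM. Krt8 to Krt18 per length was 0.0842 and 0.108 in mice 2 and 3, below the range of 0.166 to 0.486 in the other 29 libraries. Between 6d and Col vehicle neither Krt18 (log2 difference -1.06 ± 1.25, edgeR adjusted p = 0.542) nor Krt8 (-2.25 ± 1.15, 0.171) passed the test.

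At 1d post-CFA, 0 of 11 tested members were called by edgeR, with 0% of 13944 genes called higher and 0% lower. At an unadjusted p under 0.05, 1 member (Krt80) and 588 of the 13944 genes passed, and DESeq2 called 0 members. CFA 1d mouse 3 stood apart with 27.6 CPM of Krt14, 30.4 of Krt5, 15.4 of Krt15 and 12.2 of Krt79, against at most 4.76, 5.16, 0.137 and 0.161 in the other 2 mice. Its sebaceous markers summed to 125 CPM, beside 119 and 84.3 CPM in mice 1 and 2, with all 10 of them at 10 counts or more. Its epidermal differentiation markers summed to 95.8 CPM, beside 21.3 and 20.4 CPM.

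Of the 36 members, 19 were called in at least 1 of the 9 comparisons and 17 in none. The share of all genes called in at least 1 comparison was not counted. At 10U Col 6d alone, 8.4% of 14281 genes were called lower and 10.3% higher. The members called in none were Krt8, Krt15, Krt18, Krt77, Krt78, Krt222, Krt6a, Krt75, Lce6a and 8 Lce1 genes. Krt75 and Lce6a had too few counts to be tested in any comparison. Krt222 ranged from 0.716 to 4.64 CPM over all 31 libraries.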

How the data were processed

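RNA of whole MM from 31 mice was sequenced, 1 library per mouse (stranded poly(A) kit, 50-base single-end reads). The authors deposited counts of reads per gene symbol. The submitters' processing notes name TopHat2, HTSeq and mm9; versions are not given in the sources used here. Whether counting used strand is not given either, and Krt10 overlaps an exon of Gm11940 on the opposite strand. Rows that name no gene were left out.

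Members and gene lists were chosen with earlier results of these data known. Symbols were joined to GENCODE vM1 (NCBIM37) for exon lengths, 21627 by symbol and 30 by synonym. Tests were edgeR 4.0.16 quasi-likelihood fits on the counts (R 4.3.3), on the 2 groups compared, TMM-scaled, over all genes with at least 10 counts in 3 libraries, with Benjamini-Hochberg adjustment. A call required an adjusted p under 0.05 and a fold over 2. The p-values set each difference against the spread between mice of the same group. DESeq2 1.42.0, other scalings, filters and references, a replicate block and leaving out each library were tried. The fits were tested on simulated data. Same-numbered libraries deviated together in every pair for CFA vehicle against Col vehicle (r of 0.114 to 0.625) and CFA 1d against CFA vehicle (0.115 to 0.447). For the latter the block changed no call. The numbers come from the titles only, and libraries with different numbers were not correlated for comparison.

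Genes were named by this rule: the 3 members highest in mean CPM per class, members called against vehicle (at most 10 per comparison), Krt14, Krt15, Krt17, Krt77 and Krt79, which the study names, and the top 2 genes of each marker list. Others (Krt9, Krt75, Krt222, Lce1b, Lce1m, Lce6a, members below the minimum, Calm4, Hrnr, Myh3) were named after their values were seen. The list of 24 inflammatory genes was added after the data were seen. Promoters of 28 members were matched by symbol in RefSeq (GRCm38.p6).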

Additional observations from a re-analysis of the deposited data

Results flagged for a closer look

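In groups of 4 mice, a value was picked out where 1 mouse lay far from the other 3 on the log2 scale of CPM plus 0.1 (its gap to the nearest over the group's range above Dixon's 95% critical value); chance alone picks out about 1 in 20 groups. In 0.2U Col 1C, mouse 2 lay below the others for the summed basal keratins (46.6 CPM against 246 to 327, gap over range 0.855), the summed inducible and follicle-duct keratins (5.08 against 175 to 240, 0.918), Krt14 (0.894), Krt17 (0.878), Krt77 (0.847) and Krt79 (0.946).

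In 0.2U Col RPC, Krt6a was high in mouse 3 (0.937 CPM, gap over range 0.902), Krt7 was low in mouse 1 (5.64 CPM, 0.857) and Krt79 was low in mouse 4 (1.12 CPM, 0.86). At 10U Col 2d, Krt80 was low in mouse 4 (4.95 CPM against 110 to 139, 0.93), and mouse 3 was low for the summed inducible and follicle-duct keratins (0.0444 CPM, 0.865) and for Krt24 (0.355 CPM, 0.847). At 10U Col 12d, mouse 2 was high for the summed other keratins (8.63 CPM, 0.849), Krt1 (6.64 CPM, 0.841), Krt18 (11.3 CPM, 0.898), Krt24 (2.05 CPM, 0.852) and Krt8 (6.40 CPM, 0.899). Mouse 2 also had the highest salivary marker sum of the 12d group, 927 CPM against 52.7 to 553.

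The sum of the 4 other keratins (Krt23, Krt24, Krt80 and Krt222) lay above the vehicle mean in every mouse at 10U Col 2d and below it in every mouse at 6d and 12d. The mean log2 changes differed by 3.32 between 2d and 6d and by 3.72 between 2d and 12d; these differences in direction were not tested. The vehicle sums were 9.19, 33.7 and 11.1 CPM, the highest with 20.2 CPM of Krt23, and the 6d sums of 8.03 to 9.69 CPM lay close to the lower 2. Of the 3 members tested at 6d, Krt80 and Krt222 had values above vehicle (0.74 and 0.16 on the log2 scale, neither called) and Krt24 was called lower.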

How the results depend on the processing

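The calls are few and rest on 3 or 4 mice per group. Counts under other settings are of members only, and the share of all genes called there was not counted. Of 120 recounts of the members called, 64 stayed within 1.5 times the main count; of 314 repeats for single called members, 0 turned direction and 127 lost the call. The cause of each shift was not tested.

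At 5d post-CFA (4 called) there were 7 with DESeq2, 2 with DESeq2 size factors in edgeR, 0 in 1 fit over all libraries, 0 with both vehicle groups and 2 with the replicate block. For 0.2U Col 1C (0) there were 12 with DESeq2, 5 in 1 fit and 8 with both vehicle groups. Counts with both vehicle groups also carry the difference between these groups, which was called for Krt1, Krt2 and Krt10. For 10U Col 2d (1) there were 11 with DESeq2, 2 with DESeq2 size factors, 2 with no filter, 10 in 1 fit, 3 with both vehicle groups and 11 with the replicate block. For 6d (14) there were 1 with both vehicle groups and 6 with the block. For 12d (2) there were 11 with DESeq2, 5 in 1 fit, 0 with both vehicle groups and 1 with the block. For 6d against 2d (2) there were 5 with DESeq2. For CFA vehicle against Col vehicle (3) there were 12 with DESeq2, 11 in 1 fit and 0 with the block. Except in that comparison and at 1d post-CFA, some same-numbered pairs correlated below 0.1. Libraries with different numbers were not correlated, so whether the replicate numbers pair the mice was not tested.

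Leaving out 1 library gave 0 to 8 calls at 5d post-CFA, 0 to 6 for 1C, 0 to 12 for 2d, 4 to 12 for 6d, 0 to 3 for 12d, 0 to 6 for 6d against 2d and 0 to 3 for the vehicle groups. A group left with 2 mice shares the spread of the other.

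With CPM by total reads in place of TMM, 10 of 63 group means of summed CPM moved by more than 1 SD. At 5d post-CFA the simple epithelial mean went to 146, the basal to 21.8, the follicle-duct to 2.16 and the other keratins to 17.2 CPM. At 10U Col 6d the basal went to 5.14, the suprabasal to 29, the follicle-duct to 0.657, the other keratins to 11.4 and the cornified envelope to 4.83 CPM, and in CFA vehicle the follicle-duct to 0.727 CPM.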
